A study of Mus musculus with 4 samples.

Results

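A small set of pancreatic β cells that carried RNA of several interferon-stimulated genes at once was described, in islets of wild-type and *Pax4* mutant mice. Members were selected on their UMIs (unique molecular identifiers, 1 per captured RNA molecule): a β cell was a member when it held at least 1 UMI of 3 or more of *Ifit1*, *Ifit3*, *Ifit3b*, *Rsad2*, *Irf7* and *Cxcl10*. A β cell was a barcode with under 10% mitochondrial UMIs, 3000 to 50000 UMIs and 2000 to 5000 genes, in which *Ins1* and *Ins2* together made at least 5% of UMIs and *Gcg*, *Sst* and *Ppy* each stayed under 1%. There were 107 members among 8088 β cells, 12752 cells past the filters and 22218 barcodes in all.

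Islets were taken from male mice that were wild type (WT) or homozygous (HH) for a *Pax4* knock-in allele, R200H in the mouse protein, which stands for R192H in the human one. Mice ate standard chow (SCD) and were 12 weeks old, or had eaten a high-fat diet (HFD) for 4 weeks and were 16 weeks old, which gave the groups WT SCD, HH SCD, WT HFD and HH HFD. Islet cells of 2 to 3 mice were pooled into 1 droplet-based 3′ single-cell library per group, so genotype and library cannot be told apart, nor can diet, age and library. *Pax4* had 0 UMIs in all 4 libraries, and the genotype labels could not be checked by it.

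Interferons are secreted by virus-infected cells and by immune cells, and they act on neighbouring cells through surface receptors and JAK kinases. Type I interferons lead to a transcription factor complex that holds IRF9 and binds a DNA element called the ISRE (interferon-stimulated response element) in promoters of antiviral genes. Interferon gamma acts mainly through another element, GAS, and raises genes of antigen presentation. In islets this response is best known from type 1 diabetes, where β cells surrounded by immune cells show raised MHC class I, the molecules that present peptides to cytotoxic T cells.

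Promoters of 4 of the 6 genes that chose the members are shown first, because the letters of the ISRE recur in them. RefSeq promoters of GRCm38.p6 were searched over the 250 bases before each transcription start for the ISRE core, which is GAAA, any 2 bases and GAAA again. Both strands were searched, so that TTTC, any 2 bases and TTTC also counted, and overlapping matches were counted separately. A match was present in 5 of 6 promoters of the selecting genes, the exception being *Irf7*, which is not shown, nor is *Cxcl10* with 1 match at -213, against 2.98% of 32851 promoters in the table. Capitals mark the matches within the last 220 bases before the start, read 5′ to 3′ along the gene. The stretches are chr19:34640669-34640888 for *Ifit1*, chr19:34583309-34583528 for *Ifit3* and chr19:34607737-34607956 for *Ifit3b*, all on the plus strand. Those of *Rsad2* (chr12:26456453-26456672), *Isg15* (chr4:156200819-156201038) and *Bst2* (chr8:71537473-71537692) lie on the minus strand. *Isg15* and *Bst2* were not used in the choice and are shown because they had among the largest differences below and held matches. *Oasl2* and *Xaf1*, with differences of like size, held none and are not shown.
Ifit1: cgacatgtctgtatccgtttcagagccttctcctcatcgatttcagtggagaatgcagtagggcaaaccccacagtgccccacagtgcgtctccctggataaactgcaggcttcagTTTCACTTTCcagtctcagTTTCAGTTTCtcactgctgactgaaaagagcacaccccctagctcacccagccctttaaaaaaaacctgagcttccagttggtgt
Ifit3: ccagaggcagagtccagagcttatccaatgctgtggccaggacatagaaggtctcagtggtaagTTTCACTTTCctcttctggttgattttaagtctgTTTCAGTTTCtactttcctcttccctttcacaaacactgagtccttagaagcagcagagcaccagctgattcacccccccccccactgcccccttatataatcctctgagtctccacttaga
Ifit3b: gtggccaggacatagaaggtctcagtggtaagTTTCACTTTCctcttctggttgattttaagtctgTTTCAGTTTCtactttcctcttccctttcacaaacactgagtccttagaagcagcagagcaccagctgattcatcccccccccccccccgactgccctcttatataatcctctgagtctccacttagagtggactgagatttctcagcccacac
Rsad2: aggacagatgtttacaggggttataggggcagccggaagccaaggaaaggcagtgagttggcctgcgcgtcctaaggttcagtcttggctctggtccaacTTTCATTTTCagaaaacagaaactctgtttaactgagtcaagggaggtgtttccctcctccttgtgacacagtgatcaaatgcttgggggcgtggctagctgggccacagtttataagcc
Isg15: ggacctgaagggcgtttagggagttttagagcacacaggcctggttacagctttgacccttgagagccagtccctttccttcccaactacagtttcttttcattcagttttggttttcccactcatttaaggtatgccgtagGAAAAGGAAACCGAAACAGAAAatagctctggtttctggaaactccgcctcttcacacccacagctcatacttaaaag
Bst2: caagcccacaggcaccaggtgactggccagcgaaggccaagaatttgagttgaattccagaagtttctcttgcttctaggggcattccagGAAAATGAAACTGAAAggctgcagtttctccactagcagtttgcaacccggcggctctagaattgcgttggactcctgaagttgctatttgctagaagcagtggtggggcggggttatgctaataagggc
The same 2 elements, 34 bases apart by their starts (-156 and -122 in *Ifit3*, -188 and -154 in *Ifit3b*), stood in both *Ifit3* copies. These neighbours on chromosome 19 are near-identical genes, and UMIs may have been split between them. *Isg15* held 3 overlapping matches, at -78, -72 and -66, and *Bst2* held 2, at -130 and -124. A match is a description of letters and not of binding.

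Members were present in every library. They were 38 of 2056 β cells in WT SCD (1.85%, 95% Clopper-Pearson interval 1.31 to 2.53) and 11 of 1990 in HH SCD (0.553%, 0.276 to 0.987). On HFD they were 27 of 1150 in WT (2.35%, 1.55 to 3.40) and 31 of 2892 in HH (1.07%, 0.729 to 1.52). The share was lower in the HH library than in the WT library on each diet, and the intervals, which cover counting error only, did not overlap. With 1 library per group no test of genotype was made. Thinning every cell to 10000 UMIs gave 1.08%, 0.252%, 1.49% and 0.627% in the same order, and leaving out cells with UMIs of 2 or more of 10 endothelial markers gave 1.70%, 0.511%, 2.15% and 1.01%. The order of the 4 libraries was the same in both, but WT SCD lay above WT HFD with the looser filter on cells (2.14% and 1.87%). The intervals of WT and HH then overlapped on HFD, at 0.868 to 2.37 and 0.372 to 0.989 after thinning and at 1.38 to 3.19 and 0.673 to 1.46 without the endothelial-marker cells, and they stayed apart on SCD. On SCD they overlapped with 4 genes required, after thinning to 3000 UMIs and, as an alternative added after seeing the data, without cells with immune or endothelial markers (0.933 to 2.29 and 0.208 to 1.06). Median depth of members and other β cells was 27501 and 26388 UMIs in WT SCD and 26975 and 26187 in HH SCD. On HFD it was 31535 and 29778 in WT and 22503 and 24312 in HH.

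**Figure D1:**
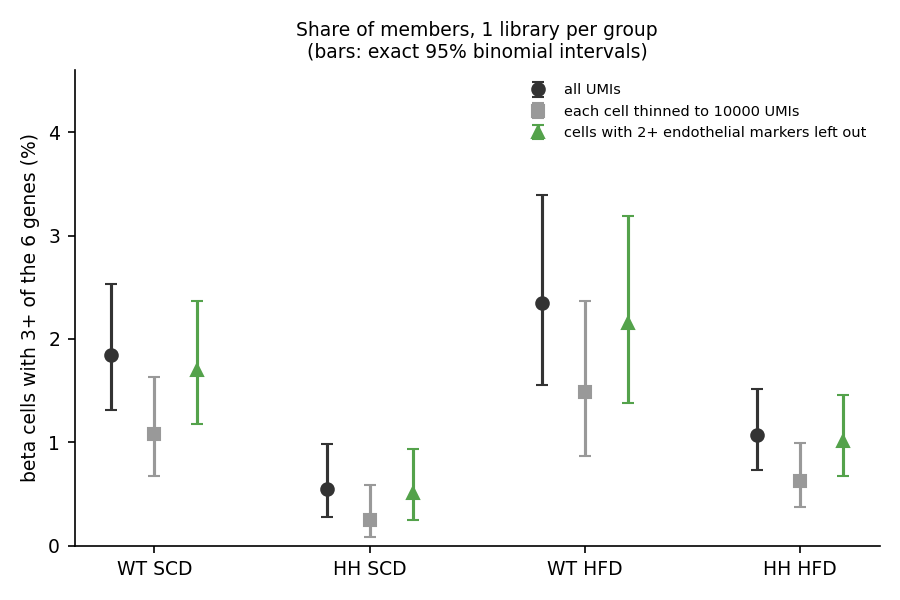
Share of β cells (y axis, %) with UMIs of 3 or more of the 6 genes in each library (x axis), with exact 95% binomial bars, from all UMIs (circles), after thinning to 10000 UMIs (squares) and without cells that held endothelial markers (triangles). HH SCD is lowest and WT HFD highest in each series.

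Members differed widely in how much of the response they held. Of the 107 members, 43 held UMIs of 3 genes, 29 of 4, 19 of 5 and 16 of all 6. Another 276 β cells held 2 genes and stayed outside. *Irf7*, the transcription factor that amplifies type I interferon, was found in 96 members, *Rsad2*, the antiviral enzyme viperin, in 91, and *Ifit1*, which binds viral RNA, in 89. *Ifit3* was found in 77 and *Ifit3b* in 51. *Cxcl10*, the chemokine that attracts activated T cells, was found in only 32, and 1 cell held 20.2% and 5 cells 66.4% of its 628 UMIs. Over all members *Cxcl10* was thus the most unevenly spread of the 6, as the highest single-cell share of the others was 10.7%, in *Rsad2*. In HH SCD, where *Cxcl10* had 6 UMIs, 1 cell held 33.3% of them, against 41.9% for *Ifit3* and 39.1% for *Irf7*.

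By library, the summed level of *Ifit1* in members was 209 CPM (UMIs per 1000000 of the summed cells), 129, 144 and 159 in the order WT SCD, HH SCD, WT HFD and HH HFD, against 3.61, 2.91, 2.50 and 1.27 in the other β cells. *Cxcl10* stood at 284, 20.4, 193 and 234 CPM in members and at 3.26, 2.24, 0.417 and 1.22 in the others. These levels follow from the rule and were not tested. HH SCD had the lowest member level of each of the 6 genes, at 611 CPM for their sum against 1277, 1131 and 1068 in WT SCD, WT HFD and HH HFD, and it rests on 11 cells.

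A set of 76 antiviral and ISG15-pathway genes that the rule did not use rose with the number of selecting genes found. Summed over the libraries it stood at 651 CPM in cells with none of the 6 genes, 702 with 1 and 892 (95% Poisson interval 871 to 914) with 2, just outside the threshold. Just inside, with 3 genes, it stood at 1896 CPM (1819 to 1976), and then at 2554 with 4, 3686 with 5 and 5115 with 6. Per cell, members spanned 2.52 to 234 UMIs of these genes per 10000, with a median of 25.7. The highest value was of a WT SCD cell with all 10 endothelial markers and 6.90% insulin UMIs, and among the 96 members with under 2 of those markers the highest was 127. A level of at least 10 per 10000 was reached by 99 of 107 members (92.5%) and by 844 of 7981 other β cells (10.6%). The level in members was 3076 CPM (2969 to 3185) in WT SCD and 2019 (1860 to 2188) in HH SCD, and on HFD 2986 (2870 to 3105) in WT and 2883 (2762 to 3009) in HH. The value of HH SCD, the lowest, rests on 11 cells, and these intervals leave out the spread between cells. Its median per cell was 19.2 per 10000 against 29.7, 25.1 and 24.7. Among cells with 5 of the genes, HH SCD (3477 CPM, 2 cells) did not lie below HH HFD (3259, 4 cells). In the other β cells the level differed little, at 703, 674, 645 and 660 CPM.

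**Figure D2:**
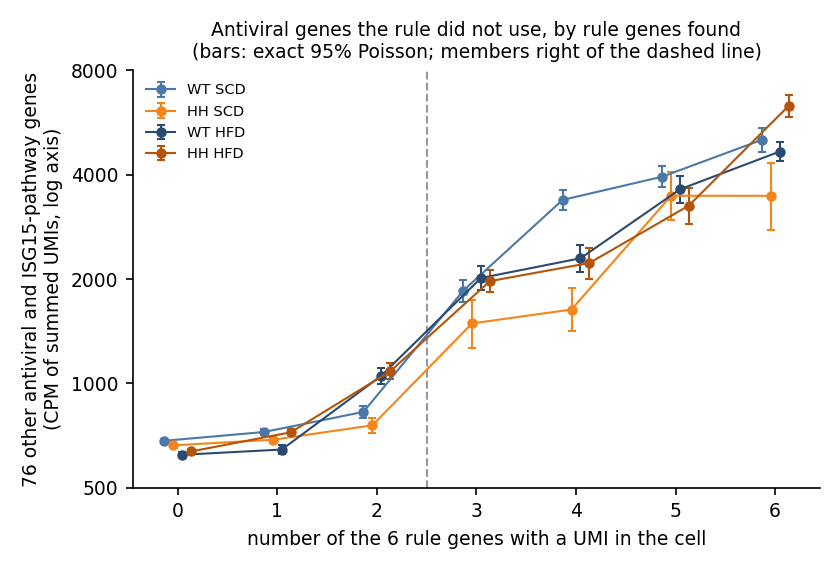
Summed level of 76 antiviral and ISG15-pathway genes (y axis, CPM, log axis) in β cells grouped by how many of the 6 selecting genes held a UMI (x axis), 1 line per library with exact 95% Poisson bars. The level lies at 623 to 1085 CPM left of the dashed line and at 1489 to 6311 CPM among the members right of it.

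RNA of other cell types was counted before genes were compared, since free RNA and doublets can carry UMIs into a barcode. Of the 10 endothelial markers, members held 598, 319, 387 and 429 CPM in WT SCD, HH SCD, WT HFD and HH HFD, against 44.3, 28.8, 13.8 and 54.5 CPM in the other β cells, and none of the 10 was at 0 in members. This RNA lay in few cells. A total of 11 members (4, 1, 3 and 3) held 2 or more of the markers, 9 of them held all 10, and those 11 carried 1314 of the 1341 endothelial UMIs. Insulin made 5.12% to 58.1% of UMIs in the 11 (median 31.9%) and 38.7% to 64.5% in the other 96 (median 55.4%). The 76 antiviral genes stood at a median of 36.7 per 10000 in the 11 and 25.1 in the 96. T and NK cell markers were at 0 UMIs in members of all 4 libraries. The 12 macrophage markers stood at 133.5, 183, 52.4 and 45.2 CPM in members against 50.5, 66.5, 59.0 and 61.0 CPM, and 1 member each held 58.8% and 59.3% of those UMIs in WT SCD and HH SCD. Of the ductal markers, *Krt19*, *Cldn10* and *Muc1* were at 0 in members of each library, and *Irx1* of the alpha markers was too. The whole ductal list, however, stood at 759, 607, 332 and 298 CPM in members against 729, 711, 344 and 339 CPM. The alpha list stood at 714, 706, 548 and 851 CPM against 720, 767, 620 and 864 CPM. The comparison was therefore also made without cells that held 2 or more endothelial markers, where 198 of the 248 genes called below still had enough UMIs to be tested.

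UMIs were summed over members and over the other β cells of each library, and the 8 sums were compared with edgeR's quasi-likelihood test with the library as a block. The 6 selecting genes were left out, and 11591 genes with at least 200 UMIs were tested. Of these, 47 reached that minimum only with the UMIs of members. At a Benjamini-Hochberg adjusted p under 0.05, 237 genes were higher in members (2.04% of those tested) and 11 were lower (0.0949%). The median log2 difference over all genes was -0.03. With at least 200 UMIs required in the other β cells alone, an alternative added after seeing the data, 224 were higher and 10 lower. Without the cells that held endothelial markers, 103 genes were higher (0.899%) and 10 were lower (0.0873%), of which 102 and 6 were among those of the first comparison. The count of higher genes fell to 131 when the WT SCD library was left out and to 156 when HH HFD was. The 6 gene lists of the interferon response held 62 of the 237 and 60 of the 103. Because members and others were cells of the same libraries sorted by 6 interferon genes, the test asks which other genes went with those 6. Its p-values rest on the spread between 4 libraries that differ in genotype and diet, with variances shared in part over all genes tested. The spread between cells does not enter them.

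Antiviral effectors, which block viral entry, translation or replication, were higher as a group. Of 75 listed genes 72 were in the files and 34 had enough UMIs to be tested, 31 of them were higher and 0 lower, with a median log2 difference of 2.29. With the minimum set in the other β cells alone 30 of 33 were higher, at a median of 2.23. *Bst2* (chromosome 8, 71534255 to 71537456), which tethers budding virus to the membrane, stood at 233, 98.4, 316 and 369 CPM in members of WT SCD, HH SCD, WT HFD and HH HFD and at 5.70, 4.08, 10.7 and 8.05 CPM in the others. No library overlapped between the classes, and the log2 difference was 5.15 (SE 0.13, adjusted p = 5.21e-21). UMIs of *Bst2* were found in 89 of 107 members and in 10.9% of the others. *Oasl2*, a member of the oligoadenylate synthetase family, followed at 5.45 (SE 0.31, adjusted p = 4.23e-05) and *Ddx60*, a helicase, at 4.65 (SE 0.16, adjusted p = 5.21e-21). *Rtp4* (4.69), *Xaf1* (4.88), *Rnf213* (3.59) and *Shisa5* (2.48) also rose, each in all 4 libraries. *Ifitm3*, which blocks virus entry at endosomes, was an exception. It was called at 4.44 (SE 0.40, adjusted p = 0.0106), but its UMIs lay in 15 members, and without the cells that held endothelial markers its value was 3.54 with an adjusted p of 0.787. Without those cells 29 of 34 antiviral genes were still called, at a median of 2.33.

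The ISG15 pathway, in which a ubiquitin-like protein is attached to other proteins, was higher as a group. All 5 genes were called, with and without the cells that held endothelial markers, and all 4 were that had at least 200 UMIs in the other β cells. *Isg15* itself stood at 76.6, 50.9, 65.5 and 56.2 CPM in members against 0.774, 0.228, 0.387 and 0.868 CPM, a log2 difference of 6.65 (SE 0.24). It had 189 UMIs in members and 129 in the others, so it entered the test only through the members and its call is no support. Its UMIs lay in 31 members (29.0%) and in 1.03% of the others, so the large difference came with a minority of members. *Usp18*, which removes ISG15 and damps the interferon receptor, was found in 74 members and in 26.1% of the others, with a log2 difference of 3.05 (SE 0.16, adjusted p = 7.78e-13). The conjugating enzyme *Ube2l6* differed by 4.56 (SE 0.21, adjusted p = 3.10e-17) and the activating enzyme *Uba7* by 2.71 (SE 0.38, adjusted p = 4.75e-06).

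Among the sensors of viral nucleic acid, 3 of 4 tested genes were higher. *Ddx58*, which encodes RIG-I, stood at 56.0, 78.1, 94.1 and 45.2 CPM in members and at 6.93, 6.63, 5.68 and 4.58 CPM in the others, a log2 difference of 3.45 (SE 0.18, adjusted p = 2.64e-15). *Ifih1*, which encodes MDA5, differed by 3.56 (SE 0.23, adjusted p = 2.25e-13) and *Tlr3*, the endosomal sensor of double-stranded RNA, by 2.46 (SE 0.42, adjusted p = 0.000166). *Mavs*, the adaptor that RIG-I and MDA5 share, had a value of -0.88 (SE 0.63, adjusted p = 0.79) on 5 UMIs in members.

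In the signalling list, the calls sat on the transcription factors and not on the receptors or kinases. *Irf9* stood at 50.1, 44.1, 47.6 and 35.6 CPM in members and at 4.39, 2.75, 5.06 and 4.65 CPM in the others, with no overlap and a log2 difference of 3.32 (SE 0.19, adjusted p = 8.76e-15). Its partner *Stat2* stood at 32.4, 40.7, 60.7 and 32.9 CPM against 4.44, 3.82, 5.62 and 4.72 CPM (3.09, SE 0.20, adjusted p = 8.34e-14). *Irf1*, a factor that interferon gamma induces, was also called, at 0.85 (SE 0.19, adjusted p = 0.00791), and was not past the threshold without the cells that held endothelial markers (0.55, adjusted p = 0.438). The receptor chains *Ifnar1* (0.26, adjusted p = 0.912), *Ifnar2* (0.70, adjusted p = 0.0611) and *Ifngr1* (0.51, adjusted p = 0.726) and the kinases *Jak2* (0.54, adjusted p = 0.502) and *Tyk2* (-0.42, adjusted p = 0.878) did not pass the test. Of the 16 tested genes of the list 0 were lower.

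Antigen presentation by MHC class I was the next group. Of 21 tested genes 15 were higher and 0 lower, at a median of 1.44, and the count was also 15 without the cells that held endothelial markers. *B2m*, the light chain of every class I molecule, stood at 155, 207, 247 and 255 CPM in members and at 26.2, 20.7, 42.8 and 37.3 CPM in the others (log2 difference 2.70, SE 0.10, adjusted p = 1.53e-19). It was found in 94 members and in 40.3% of the others. The immunoproteasome subunits *Psmb8* (3.22), *Psmb9* (3.04) and *Psmb10* (2.51), which cut proteins into peptides for loading, and the peptide transporter *Tap1* (3.32) also rose. The heavy chains *H2-D1* (1.14, SE 0.09, adjusted p = 1.29e-11) and *H2-K1* (0.75, SE 0.08, adjusted p = 2.02e-08) had lower values from a high level, since *H2-K1* stood at 217, 205, 243 and 217 CPM in the other β cells and at 364, 363, 400 and 394 CPM in members.

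Genes that interferon gamma is the stronger inducer of fell into 2 kinds. The immunity-related GTPases *Irgm1* (3.69, SE 0.22, adjusted p = 1.10e-12) and *Igtp* (3.60, SE 0.22, adjusted p = 2.26e-13), *Gbp7* (2.88) and *Cd274*, which encodes the T cell inhibitor PD-L1 (2.19, SE 0.27, adjusted p = 3.30e-07), rose in all 4 libraries and were found in 37 to 61 members. *Iigp1* had the highest fitted value, 7.26 (SE 0.80), with an adjusted p of 0.0837. It too entered the test only through the members, with 246 UMIs against 139, so its p-values are no support. It stood at 82.5, 217, 88.1 and 32.9 CPM in members and at 0.221, 1.18, 0.0893 and 0.868 CPM in the others, and at 7.39 on the log2 scale without the cells that held endothelial markers. The MHC class II genes *H2-Ab1*, *H2-Eb1*, *H2-Aa* and *Cd74*, which antigen-presenting cells express, had values of 4.07 to 4.50 with adjusted p of 0.555 to 0.582. Their UMIs lay in 6 to 12 members, and 1 cell held 46.8% to 56.0% of them. In all 5 of 10 tested genes of the list were higher. All 10 were called, the class II genes and *Iigp1* included, with the older quasi-dispersion or without robust estimation, both added after seeing the data, and 12 genes were with at least 20 UMIs or with filterByExpr. Fewer were called with members of exactly 3 genes (1 of 9), with at least 1000 UMIs (1 of 5) and against the 5 nearest cells in UMIs (2 of 6).

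**Figure D3:**
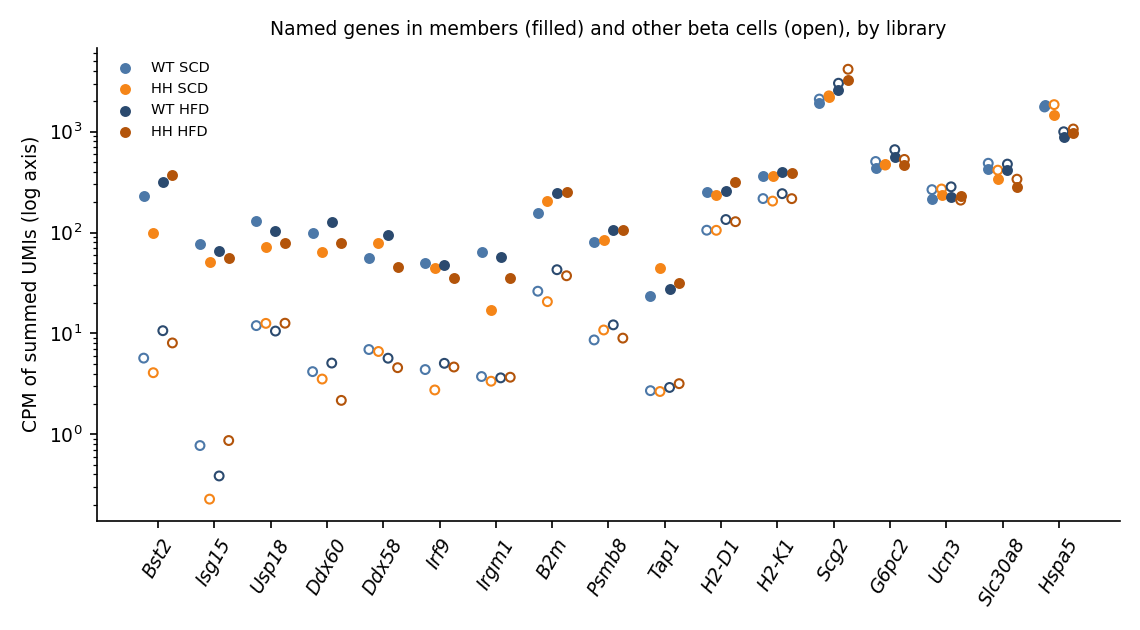
Level of 17 named genes (x axis) in members (filled) and other β cells (open) of the 4 libraries (colours), in CPM of summed UMIs on a log axis. For the 12 interferon-response genes on the left each filled point lies above the open points of that gene, while for the 5 β-cell and chaperone genes on the right the classes overlap.

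Genes of β-cell identity and function did not pass the test in either direction, although some were called lower under other minimum counts. All 30 listed genes were tested, 0 were called with the minimum of 200 UMIs, 4 lay above 0, and the values spanned -0.32 to 0.20 with a median of -0.15, against -0.03 over all genes. At an unadjusted p the smallest belonged to *Scg2*, a granule protein, at -0.23 (SE 0.07, adjusted p = 0.107), *Slc30a8*, the zinc transporter of insulin granules, at -0.25 (SE 0.08, adjusted p = 0.133), and *Neurod1*, a β-cell transcription factor, at -0.30 (SE 0.11, adjusted p = 0.231). *Slc30a8* stood at 428, 343, 422 and 285 CPM in members and at 487, 416, 477 and 338 CPM in the others, lower in all 4 libraries. *Ucn3*, a marker of mature β cells, stood at 214, 234, 226 and 233 CPM against 266, 270, 284 and 210 CPM (-0.21, SE 0.09, adjusted p = 0.406), and *Mafa*, the maturity factor, at 341, 309, 342 and 232 CPM against 397, 358, 311 and 195 CPM (-0.04, SE 0.09, adjusted p = 0.956). A missed threshold does not show that the levels were equal. Without the cells that held endothelial markers the median was -0.12. With lower minimums more was called, 6 of 30 lower and 0 higher with at least 20 UMIs and 2 lower with filterByExpr. Over all genes 63 of 15161 and 36 of 13204 were lower in these fits. The median of the list was -0.23 and -0.20 there, and that of all genes -0.11 and -0.05.

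Stress and death genes gave few calls with the minimum of 200 UMIs. Of the unfolded protein response 0 of 24 tested genes passed, with values from -0.29 to 0.07. The chaperone *Hspa5* stood at 1851, 1466, 880.1 and 969 CPM in members and at 1759, 1855, 999 and 1063 CPM in the others (-0.18, SE 0.08, adjusted p = 0.414). In the heat shock and early response list *Ier3* and *Hspb1* were called, at 2.78 and 1.78, and without the cells that held endothelial markers they had values of 0.09 and -0.08. The cell death list held 1 call of 12, *Tnfsf10*, which encodes the death ligand TRAIL. It stood at 14.7, 40.7, 39.3 and 16.5 CPM in members and at 1.33, 1.63, 1.61 and 1.62 CPM in the others (4.00, SE 0.29, adjusted p = 3.40e-12), in 30 members, and at 4.08 without the cells that held endothelial markers. Of the NF-κB and chemokine list 3 of 10 genes were called, *Nfkbia* (0.54), *Tnfaip3* (0.82) and *Cxcl16* (2.30), and 0 of 9 without those cells. *Tnfaip3* was higher in 2 of the 4 libraries, both on SCD, and *Cxcl16* had 13 UMIs in members and passed the minimum only with them. This count also fell to 0 with DESeq2, without the library block, with 4 genes required, without the highest doublet scores, and without WT SCD or HH SCD, and to 1 without WT HFD or HH HFD. It was 8 of 18 with at least 20 UMIs and 6 of 16 with filterByExpr, where 413 of 15161 and 444 of 13204 were higher over all genes. The list of dedifferentiation and immaturity genes had 2 of 12 called higher, *Ldha* (3.04) and *Cd81* (0.84), both known in many cell types. *Ldha* passed the minimum only with its 21 UMIs in members. Without the cells that held endothelial markers 0 of 11 were called. In this list 1 gene was lower with 4 genes required, with at least 20 UMIs, with filterByExpr and with the older quasi-dispersion (added). Of the cell cycle list 0 of 14 passed. Without the cells that held endothelial markers 1 of 13 was lower, *Mki67*, which had 2 UMIs in 1 member before and was then at 0. With the looser filter on cells 5 of 16 were lower, against 33 of 12088 over all genes.

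**Figure D4:**
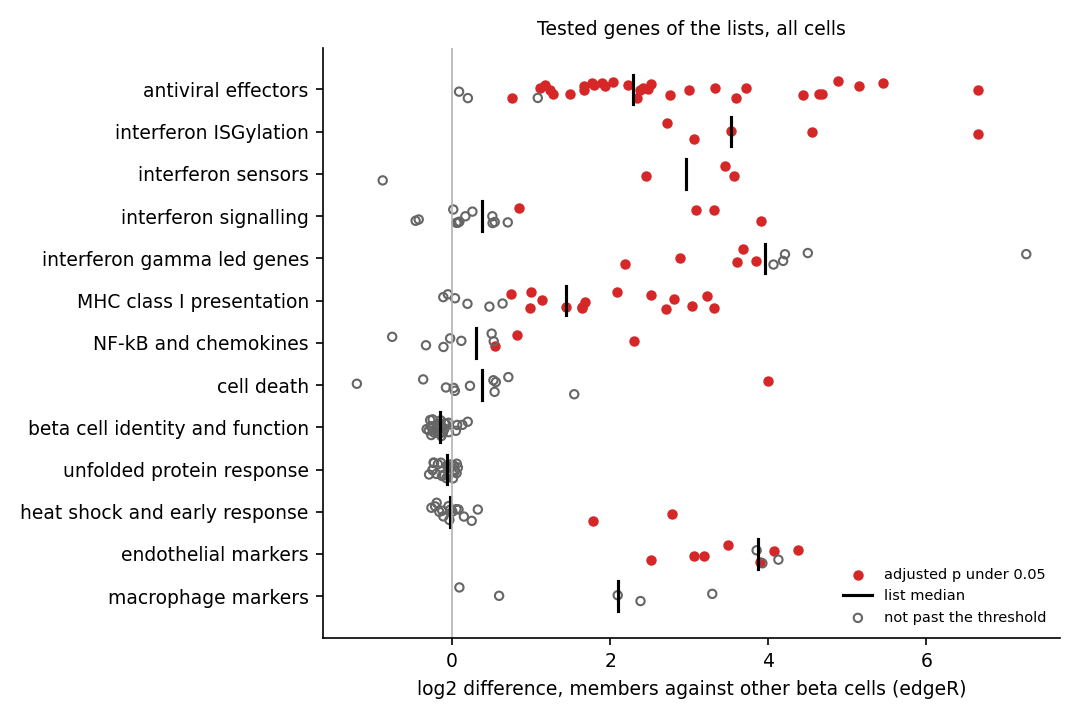
Log2 difference of members against other β cells (x axis) for each tested gene of 13 lists (y axis), in red where the adjusted p is under 0.05, with the median of each list as a black bar. The antiviral, ISG15, sensor, MHC class I and endothelial lists lie mostly above 0, and the β-cell list lies between -0.32 and 0.20.

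The endothelial markers were called too, 7 of 10, with a median of 3.87. Of the 7, *Cdh5* (4.38) passed the minimum only with its 49 UMIs in members, so its call is no support. *Cd34* (4.45), a marker of vessel cells and blood progenitors that passed the minimum only with its 58 UMIs in members, was among the 10 highest calls with UMIs in 9 members. After the 11 members and the other β cells with such UMIs were left out, 3 of the 10 markers still had enough UMIs to be tested and 0 were called. *Egfl7*, for example, went from 3.18 to 0.60. Of the B cell markers *Igkc* (1.33) and *Ighm* (1.78) were called, and 1 member held 57.5% and 78.9% of their UMIs. Of 5 macrophage, 6 stromal, 5 alpha, 3 delta and 2 PP cell marker genes tested, 0 were called, and of 4 ductal markers *Spp1* was lower, on 6 UMIs. With predicted doublets left out 201 genes were higher and 12 lower, and with the highest doublet scores left out, an alternative added after seeing the data, 184 and 12. In both 31 of 34 antiviral genes were called. The part of free RNA was not tested.

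The lower genes were few. The 6 named by the rule, lower in all 4 libraries with at least 20 UMIs in members, were *Trrap* (-1.04), *Cdk14* (-0.76), *Syncrip* (-0.72), *Runx1t1* (-0.68), *Rimbp2* (-0.51) and *Tmod2* (-0.49). *Tmod2*, which caps actin filaments, stood at 61.9, 71.3, 67.9 and 79.5 CPM in members and at 97.3, 88.2, 103 and 89.3 CPM in the others, so the classes did not overlap (SE 0.12, adjusted p = 0.0117). Their adjusted p-values lay between 0.0117 and 0.0494. Without the cells that held endothelial markers *Tmod2* (0.0421) and *Syncrip* (0.0489) kept the call, and the other 4 had adjusted p-values of 0.0512 to 0.117 with values such as -1.14 for *Trrap* and -0.76 for *Cdk14*. Without cells with immune or endothelial markers the 6 had adjusted p-values of 0.219 to 0.913, at -1.0004 for *Trrap*, -0.95 for *Cdk14*, -0.48 for *Runx1t1*, -0.42 for *Rimbp2*, -0.38 for *Tmod2* and -0.26 for *Syncrip*. The other 5 were *Gria2*, *Npy* and *Spp1*, on 28, 15 and 6 UMIs in members, and *Cenpf* and *Ghrl*, for which members held 0 UMIs and the fitted value is no measure of size. On these sums DESeq2 called 0 genes lower (110 at an unadjusted p under 0.05).

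The promoter letters were then counted over the genes called. Of the 237 higher genes 187 had a promoter in the RefSeq table, and 12.8% of these held the ISRE core in the 250 bases before the start. Of the 103 higher genes without the cells that held endothelial markers 86 were matched and 23.3% held it, against 2.83% of the 9105 matched genes among those tested. The GAS element, searched as TTCNNNGAA, which reads the same on both strands, was held by 10.2%, 12.8% and 6.96% in the same order. *B2m* held 1 ISRE match, at -139, while the promoters of *Oasl2*, *Xaf1* and *Psmb8* held none in this window.

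UMIs of the interferons themselves were counted over every barcode. *Ifnb1*, interferon beta, had 248, 198, 82 and 130 UMIs in WT SCD, HH SCD, WT HFD and HH HFD, of which 214, 195, 80 and 110 lay in barcodes that held 4 or more macrophage markers and under 5% insulin UMIs. In members it was found in 1 cell, in WT SCD, with 6 UMIs, and that cell also held 80 UMIs of macrophage markers and 38.7% insulin UMIs. *Ifng*, interferon gamma, had 2, 10, 89 and 27 UMIs, of which 0, 3, 77 and 11 lay in barcodes with T and NK cell markers, and 0 in members. In HH SCD 7 lay in other β cells, and in HH HFD 16 lay in barcodes outside the cell types counted. *Ifnl2*, *Ifnl3* and *Ifna1* had 0 UMIs in every library. Whether ligand-bearing cells and members were related was not tested, since each library is a single sample.

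The same 6 genes were counted in the other cells past the filters. Of cells with 4 or more endothelial markers 103 of 544 (18.9%, interval 15.7 to 22.5) held 3 or more of the 6, as did 33 of 159 cells with macrophage markers (20.8%, 14.7 to 27.9), 8 of 499 delta cells (1.60%) and 6 of 1316 alpha cells (0.456%). The libraries differed, with 17.7%, 12.6%, 22.3% and 19.9% of endothelial-marker cells and 45.5%, 28.6%, 17.02% and 10.3% of macrophage-marker cells in WT SCD, HH SCD, WT HFD and HH HFD. WT HFD held 5 of the 8 delta cells and 4 of the 6 alpha cells, and without it the shares were 0.730% and 0.185%. These cells were shallower than β cells, with median depths of 5768 to 15662 UMIs per library. After thinning to 5000 UMIs the rule was met by 0.408% of β cells, 0.0761% of alpha cells, 0.604% of delta cells, 14.3% of endothelial-marker cells and 15.1% of macrophage-marker cells. The part of free RNA in these shares was not tested. The first 3 thinned shares rest on 33 β cells, 1 alpha cell and 3 delta cells.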

How the data were processed

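The authors aligned 3′ single-cell reads to mm10 with Cell Ranger 6.0 (6.0.2 in the matrix headers), as their processing notes state. They deposited filtered UMI counts, raw and whole, without ambient RNA correction or doublet removal in the files. The 4 libraries held 68011082 to 104810105 UMIs in 4665 to 7123 barcodes over 32285 genes, and 38.3% to 67.8% of barcodes passed the filters. Of the barcodes of a library, 21 to 29 also occurred in another, and no member barcode was a β cell elsewhere. No replicate of a group exists, so intervals (exact Clopper-Pearson or Poisson, 95%) cover counting error only.

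Members, gene lists and tests were chosen with earlier results of these data known. Summed UMIs were compared with edgeR 4.0.16 (R 4.3.3; TMM, glmQLFit with legacy off and robust on, glmQLFTest, library as a block, genes with at least 200 UMIs), and DESeq2 1.42.0 was an alternative. The quasi-dispersion setting was chosen after the data were seen, because the older default gave an infinite prior and p-values of 0. Steps were tested on simulated data. Doublets were scored with Scrublet in scanpy 1.11.5 at 0.8% per 1000 cells and were kept. Its automatic threshold marked only 40, 46, 9 and 7 cells, so the highest scores, 130, 118, 86 and 250 cells, were also left out as an alternative. Named genes were the 6 of the rule, up to 10 per list by smallest p, and the 10 highest and 10 lowest calls with 1 sign in all 4 libraries and at least 20 UMIs in members. Some genes are not reported here. Other genes named were chosen after their values were seen. Positions came from GENCODE M21 (GRCm38), possibly another release than that of the deposited files.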

Additional observations from a re-analysis of the deposited data

How the results depend on the processing

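The share of members was lower in HH than in WT on each diet under every alternative, but the order of the diets changed, with WT SCD above WT HFD and HH SCD above HH HFD with 2 genes required and WT SCD above WT HFD with the looser cell filter. In the order WT SCD, HH SCD, WT HFD and HH HFD it was 6.71%, 4.52%, 6% and 2.97% with 2 genes required, 1.12%, 0.352%, 1.48% and 0.588% with 4, 0.389%, 0.101%, 0.609% and 0.277% after thinning to 3000 UMIs, 1.08%, 0.252%, 1.49% and 0.627% at 10000 and 0.680% in HH HFD at 20000.

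Of genes higher in members, 237 here, 123 were called with 4 genes required, 79 against the 5 nearest cells in UMIs, 65 with members of exactly 3 genes (an added alternative), 68 without cells with immune or endothelial markers, 103 without those with endothelial markers (added), 413, 136 and 444 with at least 20, at least 1000 UMIs or filterByExpr, and 147 without the library block. Leaving out 1 library gave 131 (without WT SCD) to 210, with 156 without HH HFD. Of genes lower, 11 here, the counts were 6, 4, 7, 6, 10, 63, 5, 36 and 1 in the same order, 33 with the looser cell filter, 0 with DESeq2, 28 with the older quasi-dispersion (added), and 3 (without HH HFD) to 14 with 1 library left out, with 5 without WT SCD and 6 without WT HFD. Antiviral calls, 31 here, were 19 against the nearest cells, 16 with exactly 3 genes, 50 with at least 20 UMIs and 53 with filterByExpr, while MHC class I calls stayed within 1.5 times of 15.

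Of the 248 genes past the threshold, log2 differences changed sign for 26 of 170 still tested without cells with immune or endothelial markers, 16 of 198 without those with endothelial markers, 6 of 240 with exactly 3 genes and 1 with DESeq2, *Ghrl*, and for 0 under the other alternatives. None of these was past the threshold after the change. Those named in the text were *Ifitm3* (-7.76), *Bgn* (-7.76) and *Cd81* (-0.11) in the first of these settings, *Cd81* (-0.072) and *Hspb1* (-0.078) in the second and *Ighm* (-1.39) in the third. Genes not past the threshold changed sign too, such as *Cd74* (-0.33), *Ifnar2* (-0.095) and *Mavs* (0.095) in the first setting, and no direction is read from them. Fitted values of genes with 0 UMIs left in members, such as *Ifitm3*, are no bound. Fewer members or genes entered several of these fits, and beyond that the cause was not tested. Members and the other β cells were paired by library, and without that block 147 genes were higher and 1 lower. No paired analysis of WT and HH was made, as each group had 1 library. The shares of members fell in each library when cells were thinned to 10000 UMIs. Of the 107 members 43 held the minimum of 3 genes, with a median depth of 27784 UMIs against 26615 over all members.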

Other observations

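Of the 103 genes higher in members without the cells that held endothelial markers, 43 stood in none of the 6 interferon lists, and these were looked at after their values were seen. The genes named here were picked from the 43 for what is known of them, several from antiviral defence in other cells. The 43 also held genes known from other cell types, with their UMIs in few members. Among these were *Igkc* and *Ighm* of B cells, with 57.5% and 78.9% of member UMIs in 1 cell, *Bgn* (62.5%), *Ctss* (50%), *Msln* (35.2%, in 9 members) and *Ly6a* (20.2%, in 13 members). The TRIM family genes *Trim12c* and *Trim34a* differed by 4.15 and 3.28 on the log2 scale in the comparison with all cells, in 37 and 25 members. *Samhd1*, which depletes the nucleotides that viruses need, differed by 1.48, and *Znfx1*, a sensor of double-stranded RNA, by 1.51. *Il18bp*, a secreted protein that binds and blocks the cytokine interleukin 18, differed by 2.86 in 27 members. *Ly6e*, a membrane protein, was found in 94 members and 78.3% of the others, at 1.31, and *Cd47*, the surface signal that restrains engulfment by macrophages, in 104 members and 87.5% of the others, at 0.74. *Nampt*, an enzyme of NAD synthesis, differed by 1.32. Without cells with immune or endothelial markers *Samhd1* (1.40, adjusted p = 0.0527) and *Cd47* (0.53, adjusted p = 0.0536) missed the threshold of the edgeR test. With members of exactly 3 genes *Ly6e* alone of the genes named here was past it.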
